A study of Xenopus laevis with 16 samples.

Results

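The Xenopus laevis genes described here encode matrix and contractile proteins, a secreted signal and a surface protease that are known from wound fibroblasts. They are the collagen genes col1a1, col1a2, col3a1 and col6a1, and tnc, ccn2, fap and tagln. Every probe set that the array annotation gave exactly 1 gene symbol was a member when that symbol, without its homeolog suffix (.L or .S), was one of these names. The rule chose 14 probe sets out of 15491 in all, 9304 of which had 1 symbol, and 9 genes out of the 7531 those symbols name. It reads symbols only, but the names in it were chosen with earlier results of these data known. The counts of members below are therefore a description and not an independent test of the set.

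Fibroblasts fill a wound with collagens I, III and VI, tenascin C coats the early wound, and CCN2 (connective tissue growth factor) is a secreted protein whose gene responds to TGF-beta. Contractile wound fibroblasts of mammals also make transgelin, an actin-binding protein, and in mammals activated fibroblasts carry the surface protease FAP. Persistent matrix of this kind is known from scars, while a regenerating amphibian limb forms a blastema of proliferating cells beneath the wound epidermis.

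Tadpole hindlimbs were amputated through the middle of the zeugopodium, the segment between knee and ankle, on 1 or both sides, and stump tissue 1 mm proximal to the cut was taken. One group was amputated at stage 57, when the limb no longer regenerates, and collected at 1 day, and the next was amputated at stage 57 and collected at 5 days. The other groups were amputated at stage 53, when the limb regenerates, and collected at 1 day and at 5 days. Each group had 4 arrays, 16 in all, every limb had been cut, and no uncut limb was analysed here, so a response to amputation and a difference already present between the stages cannot be told apart. In bulk tissue, fewer cells of a type and less RNA per cell cannot be told apart either, and scarring itself was not measured.

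The values are the log2 of the deposited MAS5 signal, so that a log2 difference of 1 is a 2-fold difference, and levels are compared between groups for 1 probe set at a time, never between probe sets. Of the 14 members, 12 had a mean log2 signal above the 25th percentile of all probe sets (6.60) and entered the limma fit over 11618 probe sets. That mean was taken over all 16 arrays, so a probe set dim at stage 53 could enter through stage 57, or the reverse. Probe sets of 1 gene are told apart by their mean signal, as brighter and dimmer, or as brightest, middle and dimmest for col3a1.S. A set of 3 stage 57 arrays stood apart in their beta-actin control, measured here as log2 of its 3′ signal over its 5′ signal, which is high where RNA or its copies are shortened: replicates 2 and 3 at 1 day and replicate 2 at 5 days had actin ratios of 4.70 to 5.72, against 0.01 to 2.38 on the other 13 arrays. As all 3 are of stage 57, the stage difference of each tested member is given with and without these high-ratio arrays. The ratio of 2.38 was that of replicate 4 of stage 57 at 5 days, which the fit of the other 13 arrays keeps. The next highest was 1.25, of replicate 4 of stage 53 at 5 days. The array codes in the titles run in blocks by group, and the labels do not say what the codes record. If they follow the order of processing, that order and the group cannot be told apart.

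At 5 days after amputation, 9 of the 12 tested probe sets were higher at stage 57 than at stage 53 and none was lower (limma, Benjamini-Hochberg adjusted p under 0.05), among them probe sets of col1a1, col3a1, col6a1, tnc, ccn2, fap and tagln. At that day 3.89% of all tested probe sets were higher at stage 57 and 3.48% were lower. Among the 9, the middle col3a1.S probe set had stage 53 means below the filter and was tested only through its stage 57 signals. At 1 day, 5 of the 12 were higher, those of col1a1, col3a1, col6a1, fap and tagln, and none was lower, when 1.56% of all tested probe sets were higher and 0.99% were lower. The median log2 difference of the 12 members was 1.05 at 1 day and 1.90 at 5 days, while the median over all tested probe sets was -0.04 at 1 day and -0.10 at 5 days.

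Averaged over both days, 9 members were higher at stage 57 and none was lower, against a background of 7.26% higher and 9.36% lower. In the fit of the other 13 arrays, without those of high actin ratio, 3 members were higher at 1 day and 12 of 12 at 5 days. Leaving out a single 1-day array also lowered the count at 1 day, to 2 for replicate 1 or 3 of stage 53 and to 3 for replicate 2 or 4 of stage 53 or replicate 2 or 3 of stage 57. Over all 11618 tested probe sets the calls higher at 1 day numbered 115 and 110 without replicate 1 or 3 of stage 53, against 181 with all arrays. They numbered 137 and 120 without replicate 2 or 4 of stage 53, and 129 and 124 without replicate 2 or 3 of stage 57. In the fit of 13 arrays 1.44% of all tested probe sets were higher at 1 day and 7.54% at 5 days, so the background at 5 days was higher as well. The groups did not overlap for 5 members at 1 day, where 4.32% of all tested probe sets had every stage 57 array above every stage 53 array, and for 9 members at 5 days, where 7.36% did. All 8 stage 57 arrays lay above all 8 stage 53 arrays for 5 members, namely 1 probe set each of col1a1.S, col3a1.S, col6a1.L, fap.L and tagln.L, against 1.7% of all tested probe sets.

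**Figure D1:**
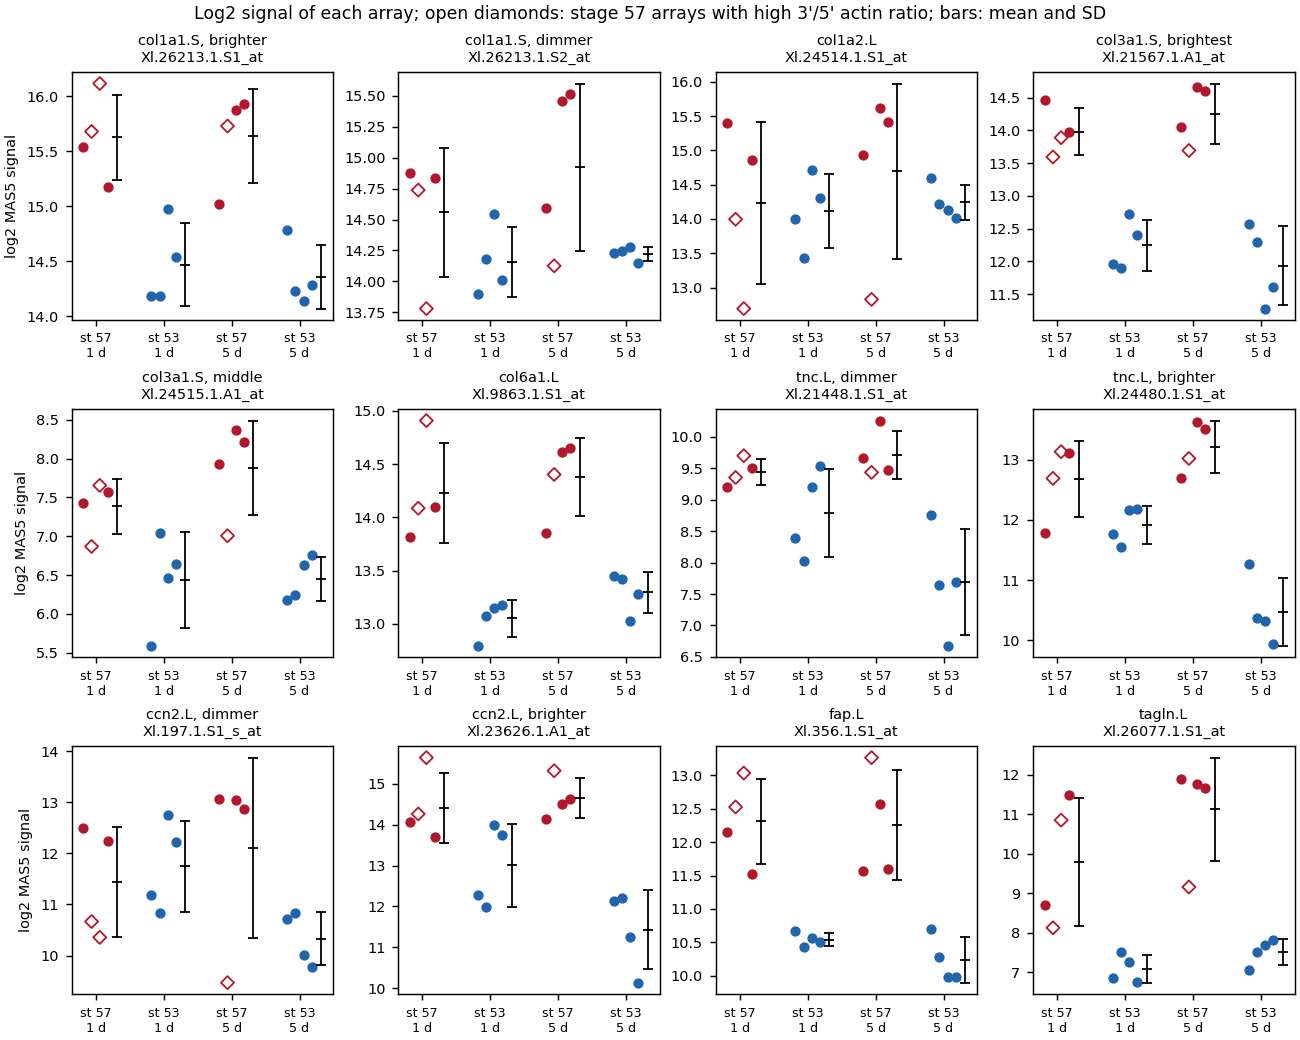
Log2 MAS5 signal of each of the 12 tested member probe sets on each array, with stage 57 left of stage 53 at 1 day and at 5 days (points: arrays; bars: mean and SD, n = 4). Open diamonds are the 3 stage 57 arrays of high actin ratio; for tagln.L all stage 57 arrays lie above all stage 53 arrays, while for col1a2.L the groups overlap.

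**Figure D2:**
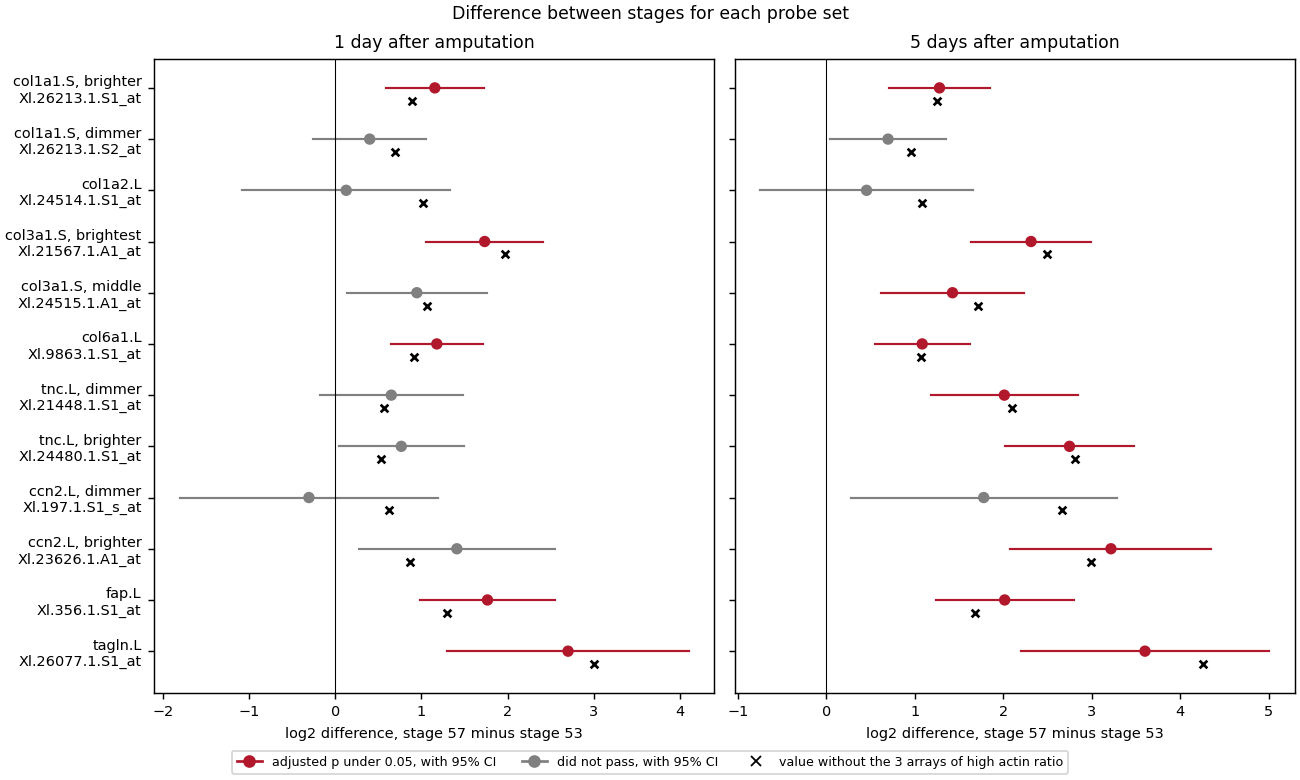
Log2 difference between stage 57 and stage 53 for each of the 12 tested member probe sets at 1 day and at 5 days, with 95% confidence intervals; coloured points passed an adjusted p of 0.05 and crosses mark the value without the 3 arrays of high actin ratio. The difference of tagln.L, 2.70 at 1 day and 3.60 at 5 days, is the farthest from 0 on each day.

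The collagen III gene, col3a1.S, had the largest log2 difference among the tested collagen probe sets on both days. Collagen III is the thin fibrillar collagen of early granulation tissue, skin and vessel walls. At 1 day the brightest of its 3 probe sets had log2 signals of 14.47, 13.59, 13.89 and 13.97 at stage 57, against 11.96, 11.90, 12.72 and 12.40 at stage 53. At 5 days the signals were 14.05, 13.69, 14.66 and 14.60 at stage 57, against 12.57, 12.29, 11.28 and 11.60 at stage 53. The stages did not overlap on either day. Its log2 difference was 1.73 (SE 0.32, 3.33-fold, adjusted p = 0.00693, limma) at 1 day and 2.31 (SE 0.32, 4.97-fold, adjusted p = 0.000343) at 5 days. Leaving out the 3 high-ratio arrays gave 1.97 at 1 day and 2.50 at 5 days, past the threshold on both days.

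The other 2 col3a1.S probe sets, the middle and the dimmest, are annotated to the same sequence record and had low signals. Whether they read the same part or strand of it was not tested. The middle one ranged from 6.87 to 7.66 at stage 57 and from 5.59 to 7.05 at stage 53 at 1 day, and from 7.01 to 8.37 at stage 57 and from 6.18 to 6.75 at stage 53 at 5 days. The stage 53 means of this middle probe set, 6.44 at 1 day and 6.45 at 5 days, lay below the filter (6.60). It entered the fit through its stage 57 means, 7.38 and 7.88, so its calls are not independent of the filter. Its calls and its lack of overlap at 5 days are counted in the numbers of members above. Its difference missed the threshold at 1 day (0.95, SE 0.38, adjusted p = 0.213) and passed it at 5 days (1.43, SE 0.38, 2.69-fold, adjusted p = 0.0317). That call was lost when any 1 of 7 of the 8 arrays of the 5-day groups was left out, with adjusted p-values of 0.0573 to 0.112, and was kept without replicate 2 of stage 57. The dimmest lay below the filter, and its mean log2 signal was 5.22 ± 1.93 at stage 57 and 5.99 ± 0.85 at stage 53 at 1 day, and 6.26 ± 1.26 at stage 57 and 5.50 ± 1.36 at stage 53 at 5 days (SD, n = 4 each). No detection calls were used, so whether so dim a probe set measured its transcript was not tested.

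Collagen I, the main fibrous collagen of skin, tendon, bone and scar, is a trimer of the products of col1a1 and col1a2. The brighter col1a1.S probe set had 15.53, 15.68, 16.11 and 15.18 at stage 57, against 14.18, 14.18, 14.98 and 14.54 at stage 53, at 1 day. At 5 days it had 15.02, 15.73, 15.88 and 15.93 at stage 57, against 14.78, 14.23, 14.14 and 14.28 at stage 53. The stages were apart on both days, by a narrow margin where replicate 1 of stage 57 came near replicate 1 of stage 53 at 5 days. The log2 difference was 1.16 (SE 0.27, 2.23-fold, adjusted p = 0.0295) at 1 day and 1.28 (SE 0.27, 2.43-fold, adjusted p = 0.00867) at 5 days. With the 3 high-ratio arrays left out, the difference at 1 day was 0.88 and no longer passed (adjusted p = 0.142), while that at 5 days was 1.25 and did (adjusted p = 0.00332). The 1-day call was also lost when any 1 of 6 of the 8 arrays of the 1-day groups was left out, with adjusted p-values of 0.0529 to 0.0973; it was kept without replicate 3 of stage 53 or replicate 4 of stage 57.

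The dimmer col1a1.S probe set had 14.87, 14.74, 13.78 and 14.84 at stage 57, against 13.90, 14.18, 14.55 and 14.01 at stage 53, at 1 day, and 14.59, 14.13, 15.45 and 15.51 at stage 57, against 14.23, 14.24, 14.28 and 14.15 at stage 53, at 5 days. Its lowest stage 57 arrays were replicate 3 at 1 day and replicate 2 at 5 days, both of high actin ratio. The difference was 0.40 (SE 0.31, adjusted p = 0.486) at 1 day and 0.70 (SE 0.31, adjusted p = 0.192) at 5 days. With both those and the third such array left out, it was 0.695 at 1 day (adjusted p = 0.176, limma). At 5 days it was then 0.96 and passed (adjusted p = 0.00574).

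The probe set of col1a2.L varied widely among stage 57 arrays. It had 15.40, 14.00, 12.69 and 14.85 at stage 57, against 14.00, 13.43, 14.71 and 14.30 at stage 53, at 1 day. By 5 days the signals were 14.94, 12.83, 15.61 and 15.41 at stage 57, against 14.60, 14.22, 14.13 and 14.02 at stage 53. The lowest stage 57 values, 14.00, 12.69 and 12.83, were those of the 3 arrays of high actin ratio, and the groups overlapped. The difference was 0.13 (95% confidence interval -1.08 to 1.33, adjusted p = 0.918) at 1 day and 0.45 (-0.75 to 1.66, adjusted p = 0.683) at 5 days, intervals wide enough to hold the differences measured for col1a1.S. Leaving these arrays out gave 1.02 at 1 day (adjusted p = 0.106) and 1.08 at 5 days, where it passed (adjusted p = 0.0118).

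The gene of the collagen VI alpha 1 chain, col6a1.L, encodes part of the beaded filaments that surround fibroblasts and muscle fibres. Its probe set had 13.82, 14.09, 14.91 and 14.10 at stage 57, against 12.80, 13.08, 13.15 and 13.18 at stage 53, at 1 day. At 5 days it had 13.85, 14.40, 14.61 and 14.65 at stage 57, against 13.45, 13.42, 13.03 and 13.28 at stage 53. Every stage 57 array was above every stage 53 array. The log2 difference was 1.18 (SE 0.25, 2.26-fold, adjusted p = 0.0199) at 1 day and 1.08 (SE 0.25, 2.12-fold, adjusted p = 0.0160) at 5 days. In the fit without the high-ratio arrays it was 0.91 at 1 day and did not pass (adjusted p = 0.0508), and 1.07 at 5 days (adjusted p = 0.00247). The call was also lost at 1 day without replicate 1 (adjusted p = 0.0669) or 3 (0.0520) of stage 53, and at 5 days without replicate 3 of stage 53 (0.0597) or replicate 3 (0.0606) or 4 (0.0516) of stage 57.

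The tenascin C gene, tnc.L, encodes a large glycoprotein that is scarce in most adult tissue and appears in embryonic, healing and regenerating tissue, where it loosens the hold of cells on fibronectin. Its brighter probe set had 11.78, 12.69, 13.14 and 13.11 at stage 57, against 11.77, 11.55, 12.16 and 12.18 at stage 53, at 1 day, and the stages overlapped. By 5 days the signals were 12.71, 13.02, 13.64 and 13.52 at stage 57, against 11.27, 10.36, 10.32 and 9.94 at stage 53, and the stages were apart. The difference was 0.77 (SE 0.35, adjusted p = 0.255) at 1 day and 2.75 (SE 0.35, 6.72-fold, adjusted p = 0.000152) at 5 days. Without the 3 high-ratio arrays the difference was 0.53 at 1 day (adjusted p = 0.685, limma) and 2.82 at 5 days (adjusted p = 9.99e-05).

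The dimmer tnc.L probe set had 9.21, 9.35, 9.70 and 9.50 at stage 57, against 8.40, 8.03, 9.20 and 9.54 at stage 53, at 1 day. At 5 days it had 9.66, 9.44, 10.26 and 9.47 at stage 57, against 8.75, 7.65, 6.68 and 7.70 at stage 53. Here too the stages overlapped at 1 day and were apart at 5 days. Its difference was 0.65 (SE 0.39, adjusted p = 0.372) at 1 day and 2.01 (SE 0.39, 4.03-fold, adjusted p = 0.00528) at 5 days. Without the 3 high-ratio arrays it was 0.56 at 1 day (adjusted p = 0.736, limma) and 2.10 at 5 days (adjusted p = 0.00461).

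The gene of connective tissue growth factor, ccn2.L, had the second largest difference at 5 days among the tested members, by its brighter probe set. CCN2 is a matrix-bound signal that in mammals is induced by TGF-beta and by mechanical load through YAP. This probe set had 14.06, 14.27, 15.64 and 13.69 at stage 57, against 12.29, 11.98, 14.00 and 13.76 at stage 53, at 1 day. By 5 days the signals were 14.14, 15.32, 14.52 and 14.64 at stage 57, against 12.14, 12.21, 11.26 and 10.13 at stage 53, with no overlap. The difference was 1.41 (SE 0.54, adjusted p = 0.189) at 1 day and 3.22 (SE 0.54, 9.30-fold, adjusted p = 0.00149) at 5 days. On the 13 arrays of lower actin ratio it was 0.87 at 1 day and 2.995 at 5 days, where it passed (adjusted p = 0.00119).

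The dimmer ccn2.L probe set did not give the same call. It had 12.49, 10.66, 10.36 and 12.25 at stage 57, against 11.18, 10.84, 12.75 and 12.22 at stage 53, at 1 day. At 5 days it had 13.07, 9.47, 13.04 and 12.86 at stage 57, against 10.71, 10.83, 10.01 and 9.77 at stage 53. The 3 arrays of high actin ratio held the lowest values of stage 57, and replicate 2 at 5 days lay below every stage 53 array. The difference was -0.31 (SE 0.71, adjusted p = 0.831) at 1 day and 1.78 (SE 0.71, adjusted p = 0.144) at 5 days. Leaving these arrays out gave 0.62 at 1 day, the opposite sign and still short of the threshold (adjusted p = 0.655), and 2.66 at 5 days, which passed (adjusted p = 0.000362). Leaving out only replicate 2 of stage 57 at 5 days was enough for that call (adjusted p = 0.00531).

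The fap.L gene encodes a transmembrane serine protease that in mammals cleaves denatured collagen and marks activated fibroblasts of wounds and tumours. In the Xenopus tadpole tail it is known as a gene induced by thyroid hormone during resorption. Its probe set had 12.16, 12.52, 13.03 and 11.53 at stage 57, against 10.66, 10.43, 10.56 and 10.51 at stage 53, at 1 day. By 5 days the signals were 11.57, 13.26, 12.58 and 11.60 at stage 57, against 10.70, 10.28, 9.99 and 9.98 at stage 53. Every stage 57 array was above every stage 53 array, and the spread at stage 57 was wider. The difference was 1.77 (SE 0.37, 3.40-fold, adjusted p = 0.0159) at 1 day and 2.02 (SE 0.37, 4.04-fold, adjusted p = 0.00322) at 5 days. On the 3 arrays of high actin ratio fap.L was at 12.52, 13.03 and 13.26, the highest of their groups, and without them the difference was 1.30 (adjusted p = 0.0364) at 1 day and 1.68 (adjusted p = 0.000848) at 5 days. The 1-day call was lost without replicate 3 of stage 53 (adjusted p = 0.0505) or replicate 2 of stage 57 (0.0524).

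The transgelin gene, tagln.L, also called SM22, encodes an actin-binding protein of smooth muscle and of myofibroblasts, the contractile cells of healing wounds. Its probe set had 8.70, 8.12, 10.85 and 11.49 at stage 57, against 6.84, 7.51, 7.26 and 6.75 at stage 53, at 1 day. At 5 days it had 11.90, 9.16, 11.77 and 11.68 at stage 57, against 7.06, 7.52, 7.68 and 7.82 at stage 53. The stages did not overlap, and stage 57 arrays differed among themselves by more than 3 log2 units at 1 day (SD 1.63, n = 4). The difference was 2.70 (SE 0.67, 6.51-fold, adjusted p = 0.0383) at 1 day and 3.60 (SE 0.67, 12.2-fold, adjusted p = 0.00334) at 5 days.

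The tagln.L difference was 3.01 (adjusted p = 0.00428) at 1 day and 4.26 (adjusted p = 3.01e-05) at 5 days without the 3 high-ratio arrays, larger than with them. The 1-day call was lost when any of 10 single arrays was left out, all 4 of stage 53 at 1 day, replicates 2, 3 and 4 of stage 53 at 5 days, replicates 3 and 4 of stage 57 at 1 day and replicate 4 of stage 57 at 5 days, with adjusted p-values of 0.0503 to 0.116. Its homeolog tagln.S lay below the filter, with mean log2 signals of 5.45 ± 1.01 at stage 57 and 5.00 ± 1.81 at stage 53 at 1 day, and 6.88 ± 0.75 at stage 57 and 5.44 ± 2.17 at stage 53 at 5 days (SD, n = 4 each). A probe set of 1 symbol may also hybridise the other homeolog, which was not tested.

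In the order of group means, stage 57 at 5 days stood first for 11 of the 12 tested members, the exception being fap.L, where stage 57 at 1 day averaged 12.31 ± 0.63 and at 5 days 12.25 ± 0.82 (SD, n = 4 each). Neighbouring groups in that order often lay within their spread, and no day difference at stage 57 passed the test. The lowest group was stage 53 at 5 days for the brighter probe set of col1a1.S, the brightest of col3a1.S, fap.L and both probe sets of tnc.L and ccn2.L, and stage 53 at 1 day for the others.

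Between 1 day and 5 days no member passed the test at either stage (limma). At stage 57 the median day difference of the 12 members, 5 days minus 1 day, was 0.32, none had an unadjusted p under 0.05, and 0% of all tested probe sets were higher and 0% lower. The largest, tagln.L, was 1.33 (SE 0.67, adjusted p = 0.999). At stage 53 the median was -0.21, no member passed, and 0.0344% of all tested probe sets were higher and 0.0861% lower; 3 members had an unadjusted p under 0.05.

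These 3 were both probe sets of tnc.L and 1 of ccn2.L, with lower values at 5 days. The day difference at stage 53 was -1.45 (SE 0.35, adjusted p = 0.102) for the brighter tnc.L probe set, -1.10 (SE 0.39, adjusted p = 0.340) for the dimmer one and -1.57 (SE 0.54, adjusted p = 0.297) for the brighter ccn2.L probe set. The dimmer ccn2.L probe set had -1.42 (SE 0.71, adjusted p = 0.564). At stage 57 the same probe sets had 0.54, 0.26, 0.24 and 0.67, in that order. All 4 arrays at 5 days were below all 4 at 1 day at stage 53 for the brighter tnc.L and the dimmer ccn2.L probe set, as was the case for 4.93% of all tested probe sets.

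Without the high-ratio arrays, whose removal changes the estimate of the spread but no stage 53 value, 2 members passed at stage 53, both lower at 5 days. Calls over all 11618 tested probe sets became more frequent in that fit too, with 218 lower at 5 days, against 10 with all arrays. The 2 members were the brighter tnc.L (adjusted p = 0.0255) and the dimmer ccn2.L probe set (adjusted p = 0.0412). Whether the day change differed between the stages was tested by their interaction, which no member passed, 3 having an unadjusted p under 0.05; 0.0258% of all tested probe sets had a higher and 0% a lower day change at stage 57. The interaction was 1.98 (SE 0.49, adjusted p = 0.658) for the brighter tnc.L probe set and 1.81 (SE 0.76, adjusted p = 0.997) for the brighter ccn2.L probe set. For the dimmer probe sets it was 1.36 (SE 0.56, adjusted p = 0.997, limma) for tnc.L and 2.09 (SE 1.01, adjusted p = 0.997) for ccn2.L. The stage differences of tnc.L and ccn2.L at 1 day and at 5 days are thus not shown to differ.

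**Figure D3:**
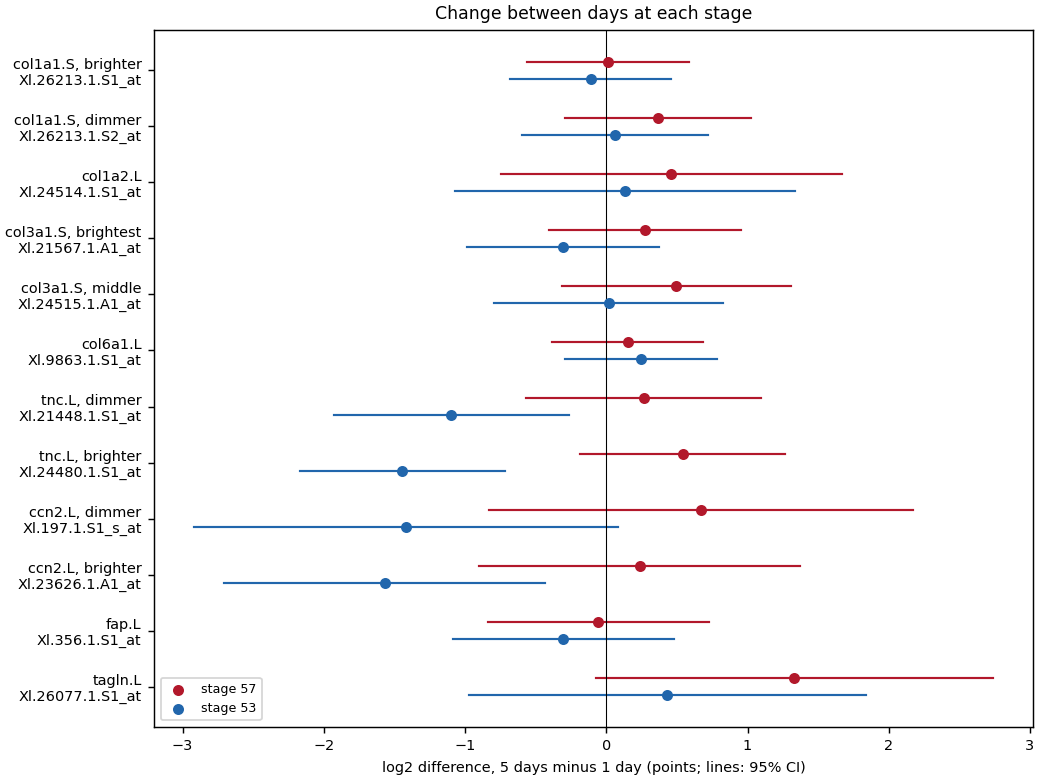
Log2 difference between 5 days and 1 day for each tested member at stage 57 and at stage 53 (points; lines are 95% confidence intervals). At stage 53 tnc.L and ccn2.L lie below 0, between -1.57 and -1.10, and at stage 57 between 0.24 and 0.67, and no value passed after adjustment.

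Probe sets of 1 gene differed in how they behaved on the 3 arrays of high actin ratio. For ccn2.L the log2 signal of the brighter minus that of the dimmer probe set was 3.60 to 5.86 on those 3 arrays and 0.36 to 1.78 on the other 13. For col1a1.S the same difference was 0.94 to 2.33 on the 3 arrays and -0.14 to 0.66 on the other 13. In both genes the ranges were apart. For tnc.L it was 3.34 to 3.59 on the 3 arrays and 2.24 to 4.05 on the others, and for the brightest minus the middle probe set of col3a1.S it was 6.23 to 6.73 on the 3 arrays and 4.65 to 7.03 on the others, so those ranges overlapped. The position of each probe set along its transcript was not analysed here.

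**Figure D4:**
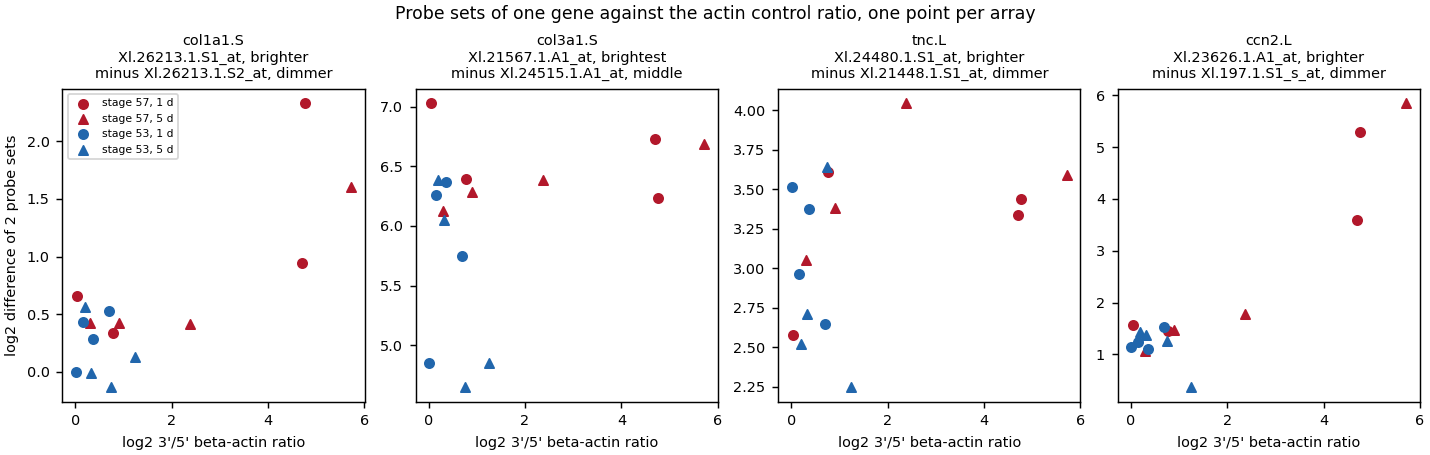
Log2 difference between 2 probe sets of the same gene on each array (vertical axis) against the log2 actin ratio (horizontal axis); colour gives the stage and the marker the day. The 3 arrays at ratios of 4.70 to 5.72 stand above the other 13 for ccn2.L and col1a1.S and among them for tnc.L and col3a1.S.

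Pearson's r was taken across the 16 arrays between members and other tested probe sets of 1 symbol, leaving out symbols that begin with LOC. It is a description in which the difference between the stages and the 3 arrays of high actin ratio take part. The genes so compared whose log2 signal most closely followed 6 of the members, each by its brightest probe set, are given here. For col3a1.S they were lgals1.1.L (r = 0.947), vim.S (0.945) and matn2.L (0.939), the genes of galectin 1, vimentin and matrilin 2. For col6a1.L they were matn4.L, of matrilin 4 (0.954), col1a1.S (0.930) and fhl3.S (0.913). For tnc.L they were ssr3.L (0.918), tm7 (0.915) and tmem258.L (0.908), and for ccn2.L stau1.L (0.945), vim.L (0.930) and psmd14.L (0.929). For fap.L they were snx12.S (0.962), sel1l.L (0.950) and cast.L (0.948), and for tagln.L thbs4.S, of thrombospondin 4 (0.947), pon2.L (0.928) and fkbp9.S (0.921).

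Other genes of the matrix were taken from 6 lists, with 1 probe set for each gene. Among 14 genes of matrix glycoproteins and proteoglycans, stage 57 had 1 higher and none lower at 1 day, and at 5 days 4 higher and 1 lower; the median log2 difference was 0.39 at 1 day and 0.56 at 5 days. At 1 day the basement membrane gene nid2.L averaged 10.81 at stage 57 and 9.55 at stage 53 (difference 1.25, adjusted p = 0.0440). At 5 days lum.L, of the collagen-binding proteoglycan lumican, averaged 11.22 at stage 57 and 8.85 at stage 53 (2.36, adjusted p = 0.0167), with thbs3.L (1.24, adjusted p = 0.0262) and sparc.L (1.76, adjusted p = 0.0412) also higher. The fibulin 1 gene fbln1.L was lower at stage 57 at 5 days, with 13.43 at stage 57 and 15.05 at stage 53 (-1.62, adjusted p = 0.0166).

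Of 20 genes of collagen processing and crosslinking, none passed at 1 day and 4 were higher at 5 days, with none lower (median 0.15 at 1 day and 0.49 at 5 days). The 4 were p3h1.L, of a collagen prolyl hydroxylase, at 12.22 at stage 57 and 9.70 at stage 53 (2.51, adjusted p = 0.0175), the transglutaminase genes tgm2.L (1.85, adjusted p = 0.0148) and tgm2.S (1.58, adjusted p = 0.0208), and p4hb.L (0.67, adjusted p = 0.0462). On the 13 arrays of lower actin ratio 12 of the 20 were higher at 5 days. Of 13 further collagen symbols listed, 2 had a probe set of 1 symbol and 1 was bright enough to test: col6a2.L, the partner of col6a1, passed at neither day, with differences of 0.65 at 1 day and 0.91 at 5 days. Averaged over both days it was higher at stage 57 (0.78, adjusted p = 0.0374). Without the 3 high-ratio arrays it passed on both days, with differences of 1.16 at 1 day and 1.28 at 5 days.

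Of 8 genes of the CCN family and of TGF-beta signalling or response, none passed at 1 day and 3 were higher at 5 days, with none lower (median 0.18 at 1 day and 1.10 at 5 days). They were ccn3.L, at 8.43 at stage 57 and 5.80 at stage 53 (2.63, adjusted p = 0.00831), ccn1.S, at 11.11 at stage 57 and 9.55 at stage 53 (1.56, adjusted p = 0.0176), and tgfb2.L, of a TGF-beta ligand, at 8.63 at stage 57 and 6.74 at stage 53 (1.89, adjusted p = 0.0272). The stage 53 mean of ccn3.L lay below the filter (6.60). Averaged over both days 4 of the 8 genes were higher at stage 57 and 1 was lower, against 7.26% and 9.36% of all tested probe sets.

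Of 11 genes of fibroblast surface and lineage, 2 were higher at 1 day and 3 at 5 days, with none lower (median 0.27 at 1 day and 0.22 at 5 days). Those at 1 day were the homeologs of the vimentin gene, whose protein forms the intermediate filaments of mesenchymal cells: vim.S averaged 14.41 at stage 57 and 12.36 at stage 53 (2.06, adjusted p = 0.00188) and vim.L 14.94 at stage 57 and 13.20 at stage 53 (1.74, adjusted p = 0.00409). At 5 days vim.S averaged 14.58 at stage 57 and 11.79 at stage 53 (2.80, adjusted p = 0.000119), vim.L was higher by 2.40 (adjusted p = 0.000152) and the integrin gene itgb1.L by 1.06 (adjusted p = 0.0239).

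Of 21 actin contractile and cytoskeletal genes, 2 were higher at 1 day and 4 at 5 days, with none lower (median 0.27 at 1 day and 0.65 at 5 days). The 2 at 1 day were tropomyosin genes, which skeletal muscle also expresses: tpm1.L averaged 12.40 at stage 57 and 8.83 at stage 53 (3.57, adjusted p = 0.000754), and tpm2.L 8.04 at stage 57 and 5.28 at stage 53 (2.76, adjusted p = 0.00660). At 5 days tpm1.L (3.49, adjusted p = 0.000474) and tpm2.L (1.98, adjusted p = 0.0250) were higher again, with the transgelin 2 gene tagln2.S (2.18, adjusted p = 0.00143) and the calponin gene cnn3.L (1.46, adjusted p = 0.0231). The stage 53 means of tpm2.L, 5.28 at 1 day and 5.94 at 5 days, lay below the filter (6.60). It was tested only through its stage 57 signals. Without the 3 high-ratio arrays the genes higher at 5 days numbered 8 of 20 tested in this list, 7 of 14 among the glycoproteins and proteoglycans, 4 of 8 in the CCN and TGF-beta list and 4 of 11 in the fibroblast list. At 1 day they numbered 3 of 14 among the glycoproteins and proteoglycans and 1 of 8 in the CCN and TGF-beta list, and the counts of the processing, fibroblast and actin lists were as with all arrays. In that fit 7.54% of all tested probe sets were higher at 5 days, against 3.89% with all arrays.

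**Figure D5:**
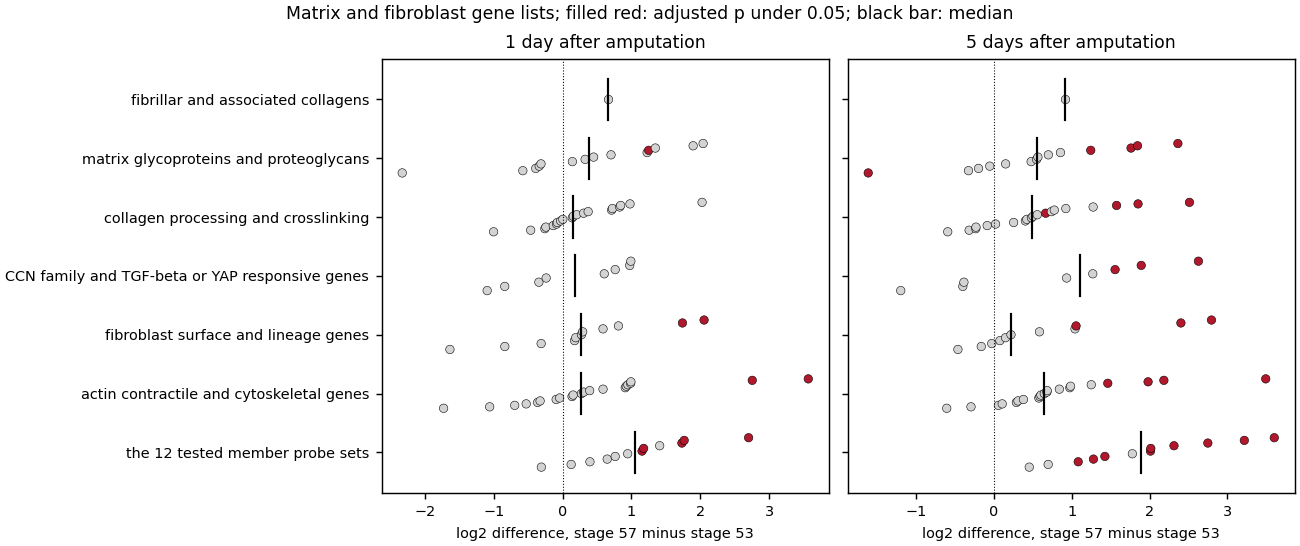
Log2 difference between stage 57 and stage 53 of the tested genes of each matrix and fibroblast list at 1 day and at 5 days (points: genes; filled red points passed an adjusted p of 0.05; black bars: list medians). In the 5 lists of 8 or more genes most genes did not pass, and fbln1.L lies at -1.62 at 5 days.

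Markers of some other tissues differed between the stages. Of 16 skeletal muscle genes 14 were higher at stage 57 at 1 day and 13 at 5 days, and their mean log2 signal per array ranged from 9.93 to 11.93 at stage 57 and from 6.98 to 8.23 at stage 53 at 1 day, and from 10.19 to 12.19 at stage 57 and from 7.69 to 8.22 at stage 53 at 5 days. The brightest of them, the troponin gene tnnt3.S, averaged 13.32 at stage 57 and 9.85 at stage 53 at 1 day. The next brightest, ckm.L, went the other way at 1 day, with 11.37 at stage 57 and 12.03 at stage 53. At 5 days ckm.L averaged 11.53 at stage 57 and 10.97 at stage 53. The tendon list rested on thbs4 alone, by its 2 homeologs. Of its other symbols, scx, tnmd, mkx and fmod had no probe set of 1 symbol, and that of egr2 was below the filter. Both thbs4 homeologs were higher at 1 day and 1 at 5 days. At 1 day and 5 days their stage 53 means were 6.41 and 6.53 for thbs4.S and 4.99 and 6.28 for thbs4.L. These lie below the filter (6.60), so both homeologs were tested only through their stage 57 signals. Their list means were 7.89 to 9.68 at stage 57 and 5.26 to 6.11 at stage 53 at 1 day. At 5 days they were 6.98 to 11.19 at stage 57 and 5.44 to 7.10 at stage 53. Without the 3 high-ratio arrays both thbs4 homeologs were higher on both days, and the muscle genes higher at 5 days numbered 14. The part of muscle or tendon tissue in the differences of the collagens, tnc.L and tagln.L was not tested.

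Of 8 cartilage genes 2 were higher on each day, with list means of 9.25 to 9.68 at stage 57 and 7.77 to 8.64 at stage 53 at 1 day, and of 8.74 to 11.97 at stage 57 and 8.09 to 9.23 at stage 53 at 5 days. Of the 4 brightest, col2a1.S, cnmd.L and col9a1.L averaged higher at stage 57 on both days, and sox9.S averaged lower. For sox9.S the means were 9.85 at stage 57 and 10.93 at stage 53 at 1 day. At 5 days they were 10.96 at stage 57 and 11.14 at stage 53. On the 13 arrays of lower actin ratio the cartilage genes higher at 5 days numbered 4 of 8. Of 3 bone genes, 2 of them the sparc homeologs that the matrix list also holds, none passed at 1 day and 2 were higher at 5 days; the list means were 12.27 to 13.44 at stage 57 and 11.55 to 12.49 at stage 53 at 1 day, and 12.55 to 13.45 at stage 57 and 11.45 to 12.40 at stage 53 at 5 days. Col1a1 is also a gene of bone and tendon, and their part in its difference was not tested.

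Smooth muscle makes tagln too, and its list held 4 testable genes. None of them passed on either day, acta2.L, smooth muscle actin, averaging 8.11 at stage 57 and 7.19 at stage 53 at 1 day and 8.45 at stage 57 and 7.77 at stage 53 at 5 days. The list means ranged from 7.43 to 8.26 at stage 57 and from 7.22 to 7.72 at stage 53 at 1 day, and from 7.32 to 8.70 at stage 57 and from 7.32 to 8.03 at stage 53 at 5 days. The probe sets of myh11 and cnn1, which define that tissue, were below the filter. On the 13 arrays of lower actin ratio 1 of the 4 was higher at 1 day and 2 at 5 days.

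None of 5 endothelial genes passed on either day, with list means of 8.53 to 9.45 at stage 57 and 7.47 to 8.26 at stage 53 at 1 day, and of 8.66 to 9.62 at stage 57 and 7.95 to 8.83 at stage 53 at 5 days, while 4 of the 5 were higher at stage 57 averaged over both days. Of 7 macrophage and neutrophil genes none passed at 1 day and 1 was higher at 5 days, and of 4 nerve and Schwann cell genes none passed at 1 day and 1 was higher at 5 days. The nerve list went both ways: pmp22.L averaged 11.73 at stage 57 and 12.70 at stage 53 at 1 day, and sox10.L 8.07 and 6.67. At 5 days pmp22.L averaged 12.03 at stage 57 and 13.00 at stage 53, and sox10.L 8.14 and 6.26. Averaged over both days 1 of these 4 genes was higher at stage 57 and 1 was lower. None of 9 epidermal genes passed on either day, while averaged over both days 1 was higher at stage 57 and 1 was lower. Their list means were 9.96 to 11.21 at stage 57 and 11.07 to 11.48 at stage 53 at 1 day, and 10.23 to 11.02 at stage 57 and 10.72 to 11.32 at stage 53 at 5 days. Without the 3 high-ratio arrays 1 endothelial gene was higher at 5 days, and 1 epidermal and 1 nerve or Schwann cell gene were lower.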

How the data were processed

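The authors' deposited value is a MAS5 signal intensity per probe set on single-colour Affymetrix arrays (MAS5 is named in the submitters' processing notes, without a version), after amplification of total RNA with a 2-cycle kit, per the labels' protocols. The mean of each array after trimming the outer 2% of its 15611 rows was nearly equal, as a scaled table has. The labels do not say that arrays come from separate animals, so p-values measure the spread between these arrays only, and the number of arrays limits the precision.

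From the deposited intensity the log2 was taken, 120 control rows were left out, and probe sets above the 25th percentile of mean log2 signal were kept. Group means of all 16 arrays were fitted with limma 3.58.1 (lmFit, contrasts.fit, eBayes with an intensity trend; R 4.3.3) and p-values were adjusted by Benjamini-Hochberg over all kept probe sets per comparison, with calls at 0.05. The script was tested on simulated data. Values of members below the filter come from the arrays alone. Symbols are those of the platform annotation, and the gene IDs of all 14 members were found in RefSeq. The members and lists were chosen with earlier results of these data known. Every member is named, and from each matrix list up to 4 called genes per comparison by smallest p, with 1 brightest probe set a gene. For likeness, the 3 genes of highest r are named among tested probe sets of 1 symbol that does not begin with LOC. Tested marker genes that are named are among the 4 brightest of their list, and not every such gene or list is named. The alternatives tried were arrays quantile-normalized or centred on their medians, an offset at the 10th or 25th percentile, the filter dropped or raised to the 50th percentile, a fit with array weights or without the intensity trend, a fit of only the groups compared, leaving out the 3 arrays of high actin ratio, and leaving out each array in turn.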

Additional observations from a re-analysis of the deposited data

Results flagged for a closer look

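Within groups of 4 arrays, 1 array lay far from the other 3 by Dixon's gap over range in 5 of the 56 groups of the 14 member probe sets; chance alone gives about 1 in 20. Replicate 3 of stage 57 at 1 day had a log2 signal of 13.78 for the dimmer col1a1.S probe set, where the nearest array had 14.74. Replicate 2 of stage 57 at 5 days had 9.47 for the dimmer ccn2.L probe set (nearest 12.86), 9.16 for tagln.L (nearest 11.67) and 4.37 for the dimmest col3a1.S probe set (nearest 6.82). These 4 values belong to arrays of high 3′ to 5′ actin ratio. Replicate 4 of stage 53 at 5 days had 3.49 for the same col3a1.S probe set (nearest 6.01), and its actin ratio was not high.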

How the results depend on the processing

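At 5 days the count of members higher at stage 57, 9 of 12 in the fit reported, was 7 to 10 when 1 array was left out, and 9 to 11 averaged over both days. In those fits the calls higher over all 11618 tested probe sets were 253 to 631 at 5 days and 628 to 1072 averaged over both days. The count was 7 without replicate 3 of stage 53, or replicate 3 or 4 of stage 57, at 5 days. All calls higher at 5 days then numbered 270, 253 and 300. The count at 5 days was 12 with array weights and 12 without the 3 arrays of high actin ratio, also averaged over both days. Over all 11618 tested probe sets the calls higher at 5 days were then 1213 and 876, against 452 in the fit reported. Averaged over both days they were 1151 and 853, against 843. No member was lower. At 1 day the count, 5 in the fit reported, was 2 with only the groups compared, 3 without the 3 arrays of high actin ratio and 2 to 5 when 1 array was left out. Over all 11618 tested probe sets the calls higher at 1 day numbered 110 with only the groups compared and 167 without the 3 arrays, against 181 in the fit reported. They numbered 110 to 251 when 1 array was left out. The count of members lower at 5 days at stage 53, 0 in the fit reported, was 4 with array weights, 1 with only the groups compared and 2 without the 3 arrays. Over all 11618 tested probe sets the same count was 437, 157 and 218 under these settings, against 10 in the fit reported. With array weights 1 member, the brighter of tnc.L, passed the interaction (2.55, adjusted p = 0.0225, limma). Over all 11618 tested probe sets 11 had a higher interaction with array weights, against 3 in the fit reported. The stage difference of the dimmer ccn2.L probe set at 1 day, -0.31, was 0.62 without the 3 arrays and -0.66 to 0.053 when 1 array was left out, that of col1a2.L at 1 day -0.26 to 0.64, and the day difference of the brighter ccn2.L probe set at stage 57 -0.002 to 0.65. The 24 day and interaction values of the tested members other than tnc.L and ccn2.L changed sign in 33 of 612 recomputations, none called. At 1 day the brighter col1a1.S probe set also lost its call by quantile normalization (adjusted p = 0.0629), without a filter (0.0548) and with only the groups compared (0.120), col6a1.L with only the groups compared (0.111), and tagln.L with the 25th percentile offset (0.0642), the 50th percentile filter (0.0507) and only the groups compared (0.107). The cause was not tested. Centring each array on its median moved the median of all tested probe sets at 5 days by 0.1, to -0.002, and the split of calls to 575 higher and 297 lower, against 452 and 404; averaged over days it was 953 and 901, against 843 and 1088. Array weights called 1213 higher and 1457 lower at 5 days. No paired analysis was possible because the titles carry only a running array code, and the replicate numbers only name arrays. Dim probe sets are the least certain, since no detection calls were used, and the fit without the 3 arrays rests on 2 at stage 57 for 1 day and 3 for 5 days.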
